A study of Mus musculus with 82 samples.

Results

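The transcripts described here encode 10 proteins of the regulated secretory pathway: the granins Scg2, Scg3, Chga and Chgb, the prohormone convertases Pcsk1 and Pcsk2, the convertase partners Scg5 and Pcsk1n, the carboxypeptidase Cpe and the amidating enzyme Pam. They were chosen by gene symbol, and all 10 were found among the 27515 genes of the count table and among the 11469 genes that had enough counts to be tested. The samples are 82 hexagons of tissue cut by laser capture microdissection from cresyl violet-stained sections of the SCN (suprachiasmatic nucleus), a hypothalamic cell group that acts as the master circadian clock, in C57BL/6 mice aged 8 weeks. The mice were group-housed with free access to water and food, and the labels give no treatment and no genetic change. The hexagons came from a grid with a largest radius of 40 µm, so each library is a small patch of mixed cells. The labels give each hexagon a dorsal-ventral, a medial-lateral and an anterior-posterior coordinate, without a unit and without naming the ends of the axes, and they name no animal, sex or time of collection. Sections are numbered here from 1 to 9 by rising anterior-posterior coordinate and held 4, 6, 12, 14, 12, 14, 13, 6 and 1 hexagons.

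Neuropeptides are made as longer precursors and are cut to size inside dense-core vesicles. Granins are acidic proteins that aggregate in the trans-Golgi network and help to form these vesicles, and several are themselves cut into peptides. Pcsk1 and Pcsk2 cleave precursors after pairs of basic residues, Cpe trims the basic residues that are left, and Pam turns a terminal glycine into an amide, a modification that both vasoactive intestinal peptide (the product of Vip) and vasopressin (the product of Avp) carry. Scg5 (7B2) accompanies Pcsk2 through the secretory pathway, and the product of Pcsk1n (proSAAS) inhibits Pcsk1. In the SCN, Vip marks neurons of the part that receives retinal input and Avp marks neurons of the surrounding shell.

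Upstream sequences are shown for Scg2, Chgb, Pcsk1, Chga and Pam. Of these, Scg2, Chgb and Pcsk1 share a motif there although their transcripts were distributed differently. The motif is the cyclic AMP response element (CRE), TGACGTCA, which reads the same on both strands. It was found within 250 bases upstream of the RefSeq start (build GRCm38.p6) of 3 of the 9 members with an entry, and in 1.55% of 32851 promoters in the RefSeq table. The following 30-base windows hold the full CRE of Scg2, Chgb and Pcsk1 and the 5-letter core TGACG of Chga, with these letters in capitals.

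Scg2, chr1:79440076-79440105 (- strand): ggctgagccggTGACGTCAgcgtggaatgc
Chgb, chr2:132781559-132781588 (+ strand): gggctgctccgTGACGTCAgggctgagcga
Pcsk1, chr13:75089768-75089797 (+ strand): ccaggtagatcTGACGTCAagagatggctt
Chga, chr12:102554886-102554915 (+ strand): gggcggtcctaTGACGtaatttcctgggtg

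The CRE began 68 bases upstream of the RefSeq start in Scg2, 72 in Chgb and 78 in Pcsk1, and the core of Chga began 44 bases upstream. In Scg2 and Chgb the CRE lies inside the annotated GENCODE gene, which begins farther upstream than the RefSeq start. The core TGACG, searched on both strands and also part of every CRE, was present in Scg3, Pcsk2 and Scg5 as well, and in 17.8% of all promoters. Neither form was found in the windows of Pam and Pcsk1n. No member's window held the E-box CACGTG, searched on both strands, which 6.02% of all promoters held. Longer upstream stretches are given for Chga, Pcsk1 and Pam, the members that rose along the dorsal-ventral coordinate, with CRE letters in capitals and bases inside the annotated GENCODE gene left off.

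Chga, chr12:102554691-102554940 (+ strand): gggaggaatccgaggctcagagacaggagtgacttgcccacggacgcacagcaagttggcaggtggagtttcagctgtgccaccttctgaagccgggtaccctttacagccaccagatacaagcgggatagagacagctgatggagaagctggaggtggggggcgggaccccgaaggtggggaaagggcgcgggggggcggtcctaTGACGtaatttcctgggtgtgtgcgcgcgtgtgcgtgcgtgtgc
Pcsk1, chr13:75089607-75089825 (+ strand): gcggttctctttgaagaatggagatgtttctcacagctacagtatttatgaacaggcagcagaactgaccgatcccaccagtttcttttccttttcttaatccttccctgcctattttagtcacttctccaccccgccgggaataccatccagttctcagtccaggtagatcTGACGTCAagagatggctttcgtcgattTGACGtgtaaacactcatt
Pam, chr1:98095647-98095896 (- strand): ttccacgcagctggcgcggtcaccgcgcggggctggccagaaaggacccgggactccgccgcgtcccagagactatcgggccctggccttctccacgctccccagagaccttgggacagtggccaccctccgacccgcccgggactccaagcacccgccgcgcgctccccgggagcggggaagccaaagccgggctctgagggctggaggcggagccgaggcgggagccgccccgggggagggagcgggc

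The core occurs once in the Chga stretch, the Pcsk1 stretch holds the CRE and one further core, and the Pam stretch holds neither. A match is a description of the letters, and no measurement of binding was made.

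Total counts ran from 11905 to 2843366 per hexagon (median 542268), and 5 libraries lay below the median divided by 3. The shallowest, replicate 4 of section 4, had 2549 genes detected against a median of 11550 and had no count of Scg3, Chga, Pcsk1 or Pcsk1n. It held 7 counts of Scg5, at 226 CPM the lowest level of that gene, and 2 counts of Pcsk2 (64.6 CPM). At its depth 3 counts correspond to 96.9 CPM (the count scaled by the TMM-adjusted library size), and of the other 81 hexagons 5 lay below that level for Scg3, 10 for Chga, 50 for Pcsk1 and 81 for Pcsk1n. Pcsk1 also had no count in replicate 4 of section 1 and replicate 6 of section 8, where 3 counts correspond to 7.33 and 6.09 CPM. These floors cover counting error only. A letter in each hexagon's description, read here as a library set, runs with the sections: every section from 4 to 7 comes from 2 sets, and the remaining sections each come from 1. SCN neuron markers were present, with a sum over the 11 of 4515 ± 1724 CPM (SD, n = 27) in the third of hexagons with the lowest dorsal-ventral coordinates, while the 2 glutamatergic neuron markers summed to a median of 0 CPM there.

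Members were detected in 79 (Pcsk1) to 82 of the 82 hexagons, at levels that differed widely between genes. Together the 10 transcripts took 0.737% ± 0.20 of CPM (SD, n = 82), from 0.226% to 1.14%. Scaled by gene length (RPKM), the granin Scg2 was the highest of the 10, with a median of 1560 RPKM. Cpe followed with a median of 499 RPKM and Scg5 with 319 RPKM. Chgb had a median of 125 RPKM, Chga 75.5 RPKM and Scg3 71.1 RPKM. Of the enzymes, Pcsk2 had a median of 56.0 RPKM and Pam 29.4 RPKM. Pcsk1n and Pcsk1 were the lowest, with medians of 14.4 and 11.4 RPKM. For comparison of scale, the median of Avp was 481 RPKM and that of Vip 34.6 RPKM.

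Over hexagons, the order was firm at the top and loose below. Scg2 exceeded Cpe in 79 of 82 hexagons, Cpe exceeded Scg5 in 74, and Scg5 exceeded Chgb in 82. The interquartile ranges of these neighbours did not overlap, and the same held for Pcsk2 over Pam, which was the higher in 71 hexagons. Chgb exceeded Chga in 55 hexagons, Chga exceeded Scg3 in 48 and Scg3 exceeded Pcsk2 in 56, with overlapping interquartile ranges. Pam exceeded Pcsk1n in 72 hexagons and Pcsk1n exceeded Pcsk1 in 43, also with overlapping ranges. These counts and ranges carry no error of the gene lengths used, which were 7910 bases for Pcsk2 and 11892 for Pam.

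The members differed in how evenly they were spread. Scg5, the Pcsk2 partner, varied least, with 507 ± 105 CPM and a coefficient of variation of 20.8%, from 226 to 809 CPM. Cpe, the trimming enzyme that acts after either convertase, was next with 1309 ± 310 CPM and 23.7%. Pcsk1 varied most, with 89.8 ± 76.2 CPM, a median of 66.4 CPM and a highest value of 397 CPM, a coefficient of variation of 84.9%. Chga followed with 250 ± 168 CPM, a median of 211 CPM, a highest value of 801 CPM and a coefficient of variation of 67.2%. The remaining granins were more even than Chga, with coefficients of variation of 41.8% for Scg2 (3842 ± 1606 CPM), 34.7% for Scg3 (192 ± 66.4 CPM) and 31.5% for Chgb (348 ± 109 CPM). Pcsk2 stood at 446 ± 156 CPM, Pam at 359 ± 160 CPM and Pcsk1n at 32.4 ± 19.98 CPM (all SD, n = 82). In a patch of mixed cells, fewer cells that express a gene and less RNA per cell cannot be told apart. Coefficients of variation also carry counting error, which is larger for Pcsk1n, with a median of 17 counts, than for Scg2, with 2099.

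**Figure D1:**
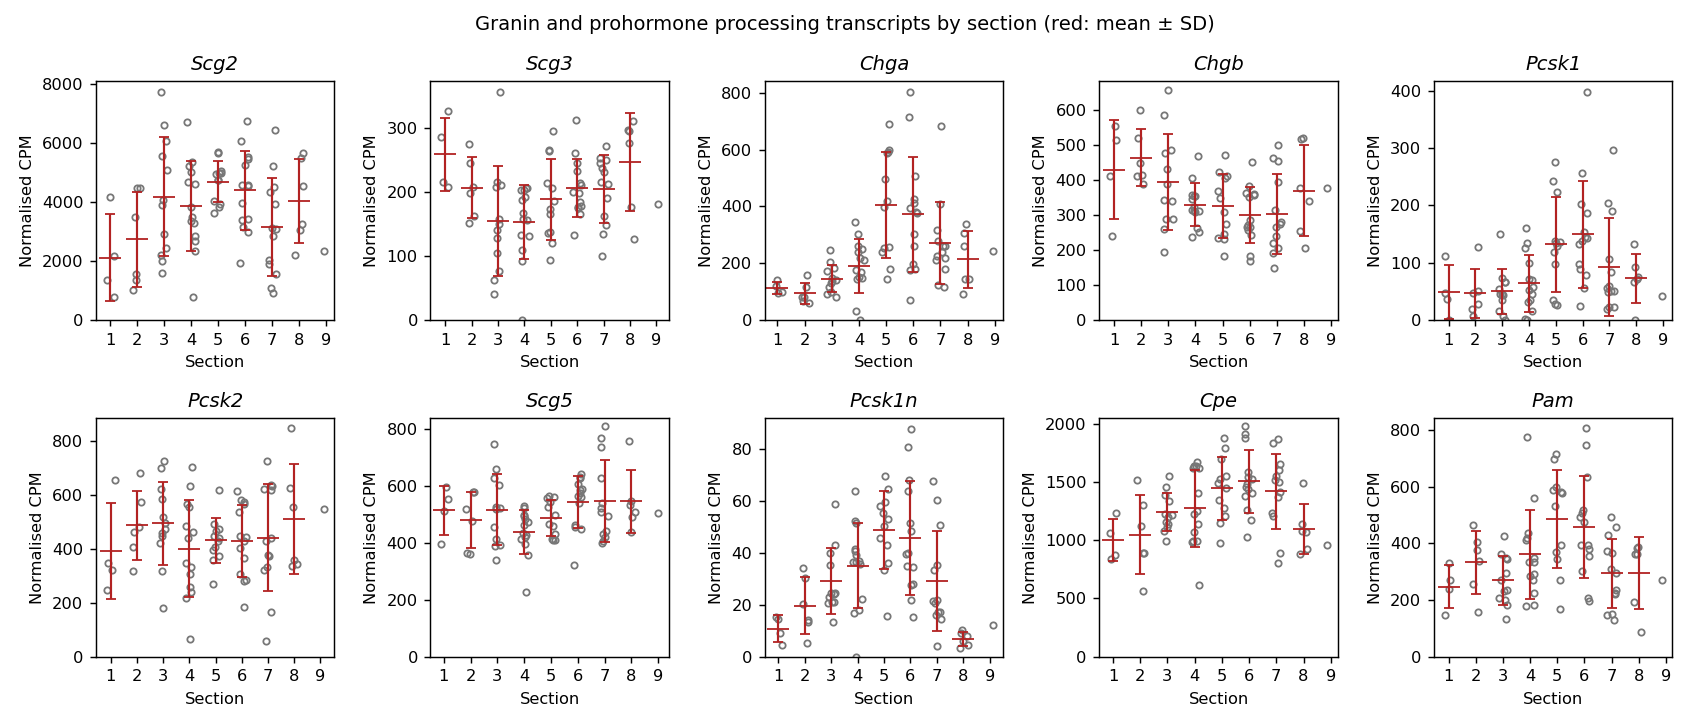
Normalised CPM (vertical axis, from 0, own scale per panel) of the 10 transcripts in each hexagon (open circles) by section (horizontal axis), with the mean ± SD of each section with 4 or more hexagons in red. Chga and Pcsk1n have their highest section means in section 5, at 405 and 48.7 CPM, while Scg5 section means stay between 438 and 546 CPM.

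Along the dorsal-ventral coordinate, on which Vip rose by 1.54 ± 0.17 (slope ± SE, log2 per 100 units), 3 of the 10 members rose and none fell. These were the granin Chga, the amidating enzyme Pam and the convertase Pcsk1. By edgeR's quasi-likelihood test with section and the medial-lateral coordinate in the model, 0.506% of all tested genes were called as rising (Benjamini-Hochberg adjusted p, threshold 0.05). Slopes were positive for 9 of 10 members, against 51.5% of all tested genes, and their median was 0.063 against 0.0026. Since some hexagons may come from the same animal, p-values that count each hexagon as independent are too small, and they reflect spread among hexagons rather than among animals.

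Chga ranged from 0 to 426 CPM with a median of 180 in the 27 hexagons with the lowest coordinates (301 to 578), and from 80.0 to 801 CPM with a median of 239 in the 27 with the highest (743 to 917). The groups overlapped over most of their range, and the highest group held the highest hexagon. The Chga slope was 0.23 ± 0.04 (edgeR, adjusted p = 3.84e-04), a 1.17-fold rise per 100 units. Slopes were also fitted to each section alone, by least squares on log2(CPM + 1), and are given here by sign. For Chga they were positive in 6 of 8 sections, with negative slopes in sections 1 and 8. Such fits rest on few hexagons, 4 in section 1 and 6 in each of sections 2 and 8.

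Pam ranged from 135 to 517 CPM with a median of 290 in the lowest group and from 87.4 to 807 CPM with a median of 412 in the highest. Its slope was 0.19 ± 0.04 (adjusted p = 3.99e-04), with the same 2 sections negative. Pcsk1 ranged from 0 to 154 CPM with a median of 50.4 in the lowest group and from 0.974 to 397 CPM with a median of 125 in the highest. Its slope, 0.36 ± 0.08 (adjusted p = 0.00494), was the steepest of the 10, positive in 6 sections and negative in sections 2 and 3. The Pcsk1 call was lost without section 4 (adjusted p = 0.0945), section 5 (0.0753) or section 6 (0.0570), with slopes from 0.32 to 0.36.

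A single hexagon held the highest level of all 3 transcripts. Replicate 6 of section 6, at a dorsal-ventral coordinate of 761, had 801 CPM of Chga, 807 CPM of Pam and 397 CPM of Pcsk1, with 10515 CPM of Vip and 17.8 CPM of Avp. The same hexagon held 267 CPM of Chgb, 442 CPM of Pcsk2 and 562 CPM of Scg5, each within 1 SD of its mean. Its total of 634932 counts lay near the median of all libraries.

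The other members showed no called slope on this axis. Scg2 had a slope of 0.12 ± 0.05 (adjusted p = 0.326) and Cpe 0.04 ± 0.02 (0.617). Pcsk1n had 0.08 ± 0.06 (0.858) and Pcsk2 0.04 ± 0.04 (0.933). Chgb had the only negative slope, -0.02 ± 0.03 (0.984), and Scg5 and Scg3 had slopes of 0.0090 and 0.00099. The sign for Scg3 changed with the scaling, to -0.0029 with library size alone.

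The sum over 12 neuron markers was 5750 ± 977 CPM in the lowest group and 5467 ± 562 CPM in the highest. That over the 11 SCN neuron markers was 4515 ± 1724 and 4451 ± 1352 CPM (all SD, n = 27 each), in groups that mix sections. Within sections, 8 of these 11 had positive slopes, with a median of 0.062, close to that of the members. None of the 11 was called by edgeR, and DESeq2 called 3, Lhx1, Six3 and Syt10. Oligodendrocyte markers summed to 2207 ± 2161 and 4623 ± 5989 CPM, and the 5 erythrocyte markers to 71.5 ± 103 and 1028 ± 3226 CPM, with medians of 24.2 and 35.7 CPM. All 5 had positive slopes, and edgeR called 1 of them, the beta-globin gene Hbb-bt (1.23 ± 0.29, adjusted p = 0.0131). The part of erythrocyte RNA in the slopes of Chga, Pam and Pcsk1 was not tested. With the SCN neuron sum added to the model, a setting chosen after the data had been seen, the slopes were 0.20 for Chga, 0.16 for Pam and 0.35 for Pcsk1, all called. With the oligodendrocyte sum they were 0.23, 0.20 and 0.36, and with library set as a factor 0.21, 0.18 and 0.38, again all called.

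**Figure D2:**
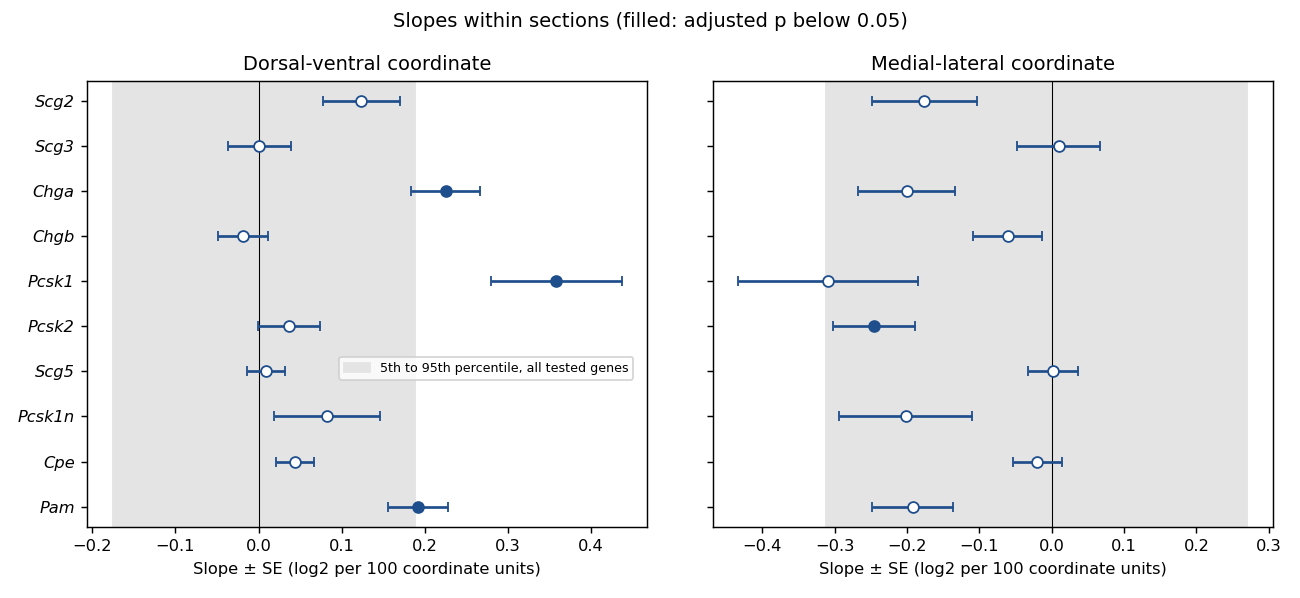
Slopes ± SE in log2 per 100 coordinate units (horizontal axis) of the 10 transcripts along the dorsal-ventral (left) and medial-lateral (right) coordinates, filled where adjusted p is below 0.05; the grey band spans the 5th to 95th percentile of all tested genes. Chga, Pam and Pcsk1 are filled on the left, where all 3 lie to the right of the band, and Pcsk2, at -0.25, is filled on the right and lies inside the band.

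**Figure D3:**
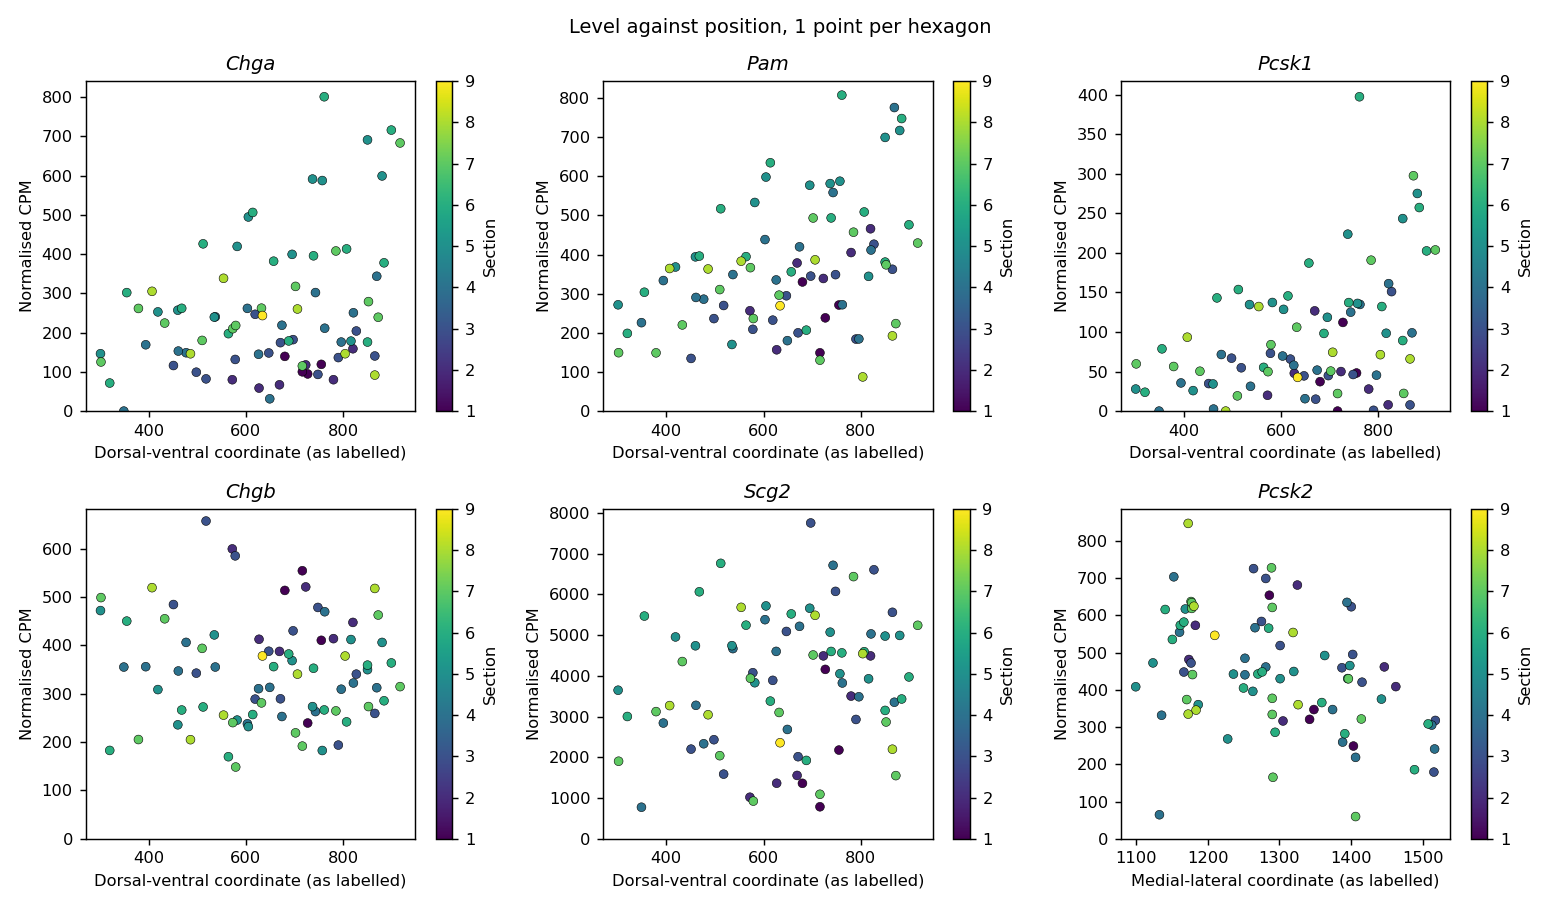
Normalised CPM (vertical axes, from 0) against the labelled coordinate (horizontal axes) for Chga, Pam, Pcsk1, Chgb and Scg2 on the dorsal-ventral and Pcsk2 on the medial-lateral coordinate, 1 point per hexagon, coloured by section. The hexagon at 801 CPM in the Chga panel is also the highest in the Pam and Pcsk1 panels.

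Along the medial-lateral coordinate the convertase Pcsk2 fell, and it was the only member called of 10, where 0.558% of all tested genes were called as falling. Pcsk2 ranged from 64.6 to 847 CPM with a median of 535 in the 27 hexagons of lowest coordinate (1100 to 1228) and from 59.7 to 635 CPM with a median of 347 in the 27 of highest (1348 to 1517). The ranges overlapped almost fully, and the lowest value of each group lay far below the rest of its hexagons. That of the first group, 64.6 CPM, rests on 2 counts in the shallowest library, replicate 4 of section 4. The slope was -0.25 ± 0.06 (edgeR, adjusted p = 0.00930). Fitted to each section alone by least squares it was negative in 8 of 8 sections, from -0.01 in section 5 to -1.16 in section 1. The section 1 value rests on 4 hexagons. The edgeR call was lost without section 6 (adjusted p = 0.0991) or section 7 (0.0530), and with library set as a factor (0.147, slope -0.24). In each of sections 4 to 7, 1 set held the lower and the other the higher medial-lateral coordinates. Set and this coordinate are therefore partly confounded. With set in the model, 14 of all tested genes were called on this coordinate, against 158 without it.

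Slopes on this axis were negative for 8 of 10 members, with a median of -0.18 against -0.0044 for all tested genes. Pam had -0.19 ± 0.06 (adjusted p = 0.0554), negative in 8 of 8 sections, and Chga -0.20 ± 0.07 (0.113). Pcsk1 had the steepest slope, -0.31 ± 0.12, but with the widest error (0.240). Scg2 had -0.18 ± 0.07 (0.270) and Pcsk1n -0.20 ± 0.09 (0.348). Chgb (-0.06), Cpe (-0.02), Scg3 (0.0097) and Scg5 (0.0016) were close to level, and the sign for Scg3, Scg5 and Cpe was not stable across settings.

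Markers of SCN neurons fell along the same coordinate. All 11 had negative slopes and 4 were called, Zfhx3, Rorb, Six3 and Rgs16, and their sum was 5293 ± 1600 CPM in the lowest group against 3264 ± 1298 CPM in the highest (SD, n = 27 each). With this sum as a covariate, a setting chosen after the data had been seen, the Pcsk2 slope was -0.09 (adjusted p = 0.940) and 3 genes of all those tested were called, against 158 in the model without it. None of the 12 general neuron markers was called on this axis (9 had a positive slope), with sums of 5389 ± 944 and 5882 ± 822 CPM, and with these as the covariate the Pcsk2 slope was -0.25 (0.0135).

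Markers of other cell types also moved along this coordinate. All 12 astrocyte markers had positive slopes and 1 was called, S100b (0.27 ± 0.07, edgeR, adjusted p = 0.0417), with sums of 5201 ± 1570 CPM in the lowest group and 6387 ± 1897 CPM in the highest. All 11 oligodendrocyte markers had positive slopes and none was called (1 at an unadjusted p under 0.05, and none called by DESeq2), with sums of 2347 ± 2300 and 4206 ± 5763 CPM. Of the 5 meningeal fibroblast markers 3 were tested, and edgeR called Slc6a13 (-2.01 ± 0.32, adjusted p = 1.35e-04) and Dcn (-1.87 ± 0.41, 0.00606) as falling, whereas DESeq2 called neither. The 5 summed to 96.8 ± 183 and 14.5 ± 17.3 CPM. The part of astrocyte and meningeal RNA in the Pcsk2 slope was not tested, and with the oligodendrocyte sum as a covariate that slope was -0.23 (0.0222).

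Position within a section was also tested with 5 position terms together (each coordinate, its square and the product of the 2). A straight slope alone can pass this test. The squares and the product were not tested on their own, so a call shows no peak or trough. The edgeR test called Pam (adjusted p = 5.30e-05), Chga (5.61e-04), Pcsk1 (0.00715) and Pcsk2 (0.00850), which is 4 of 10 members against 2.03% of all tested genes. These are the members already called on a slope. Scg2 had an adjusted p of 0.0670, and DESeq2 called it as well (0.0136). Without section 6 only Pam was called, with Chga at 0.0616, Pcsk1 at 0.138 and Pcsk2 at 0.105. Pcsk1 was also lost without section 4 (0.0917) or 5 (0.0737), and Pcsk2 without section 3 (0.0658), with library set as a factor (0.0714) and with the SCN neuron sum as a covariate (0.766).

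The convertases and their partners were compared directly, by the difference of their log2(CPM + 1) slopes in permutations of positions within sections (100000 resamples, two-sided, adjusted over 8 tests). Pcsk1 rose more steeply than Pcsk2 along the dorsal-ventral coordinate, by 0.36 (permutation test, adjusted p = 7.73e-04). It also rose more steeply than its inhibitor Pcsk1n, by 0.29 (permutation test, adjusted p = 0.0162), but this was lost without section 4 (0.102), 5 (0.107) or 6 (0.0593). Pcsk2 fell along the medial-lateral coordinate relative to its partner Scg5, with a difference of -0.25 (permutation test, adjusted p = 4.00e-04). The granins Chga and Chgb differed by 0.31 on the dorsal-ventral coordinate (permutation test, adjusted p = 4.00e-04). The other 4 differences did not pass, with adjusted p between 0.155 and 0.585, and these permutations treat hexagons as independent.

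Between sections, Chga, Pcsk1n, Pam and Cpe differed among the hexagons sampled. An edgeR test of sections 1 to 8 with both in-plane coordinates in the model, chosen after the data had been seen, called these 4 of 10 members against 4.06% of 11440 tested genes. It also called 7 of 12 astrocyte markers, 9 of 14 neuropeptide precursors, 2 of 11 SCN neuron markers and 1 of 12 neuron markers. The part of cell mix in the differences of the members was not tested. Chga had the third smallest p of all (edgeR, adjusted p = 1.51e-07), followed among the members by Pcsk1n (8.18e-05), Pam (0.00443) and Cpe (0.0234). The hexagons of a section were the replicates in this test, and the labels give no replicate of a section. These p-values therefore reflect spread among hexagons within sections, not among slices or animals.

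The 4 hexagons of section 1 held 94.7, 119, 139 and 100 CPM of Chga (replicates 1 to 4). Section 5 ranged from 146 to 691 CPM with a median of 410, and section 6 from 71.5 to 801 CPM with a median of 380. Every hexagon of section 5 lay above every hexagon of section 1, whereas section 6 overlapped it. Section means were 113 ± 20.3 CPM (n = 4), 93.7 ± 37.8 (n = 6), 146 ± 48.5 (n = 12), 189 ± 94.4 (n = 14), 405 ± 187 (n = 12), 372 ± 204 (n = 14), 271 ± 146 (n = 13) and 215 ± 100 (n = 6) for sections 1 to 8 (SD).

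Pcsk1n followed a similar arch at a far lower level. Its means were 10.9 ± 5.10 CPM in section 1, 48.7 ± 15.0 in section 5, 45.7 ± 22.0 in section 6 and 6.97 ± 2.71 in section 8, where the 6 hexagons ranged from 3.57 to 10.5 CPM. All of section 5 (lowest 15.8 CPM) lay above all of section 8. Pam means ran from 247 ± 75.6 CPM in section 1 to 487 ± 173 in section 5 and 296 ± 126 in section 8, and Cpe means from 1001 ± 181 in section 1 to 1503 ± 273 in section 6 and 1096 ± 216 in section 8. The Cpe call was lost without section 1, 6 or 8 (adjusted p = 0.0757, 0.135 and 0.0625), and the Pam call without section 6 (0.0532).

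Library set and section cannot be told apart in this test. With set as a further factor it called none of the members (edgeR, smallest adjusted p = 0.610, for Chga) and no gene at all. That model holds fewer contrasts. Sections 3 and 8 can be set against no other section, and sections 1 and 2 only against each other. Its lack of calls therefore cannot decide whether sections differ. Within section 6, Chga was 507 ± 184 CPM in set E and 237 ± 117 in set F (SD, n = 7 each), and Pcsk1n was 58.3 ± 22.2 and 33.1 ± 13.6. Within section 7, Chga was 269 ± 54.6 CPM in set F (n = 3) and 272 ± 166 in set G (n = 10), and Pcsk1n was 53.8 ± 18.0 and 21.9 ± 12.8. Hexagons of a section that belong to different sets also lie at different positions.

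A straight slope along the anterior-posterior coordinate was tested on counts summed over each of 8 sections. None of the 10 members was called by edgeR, where 0.244% of all tested genes were, and DESeq2 called none either, with 2 members at an unadjusted p under 0.05. These were Chga, at 0.55 ± 0.21 log2 per 100 units (adjusted p = 0.250), and Pcsk1, at 0.37 ± 0.15 (0.255). By p they took places 1441 and 1490 among 11469 tested genes, so many other genes also reached that level. Chga passed without section 8 (0.79, adjusted p = 0.0440). No member's in-plane slope was called as different between sections: in edgeR tests of a slope by section, also chosen after the data had been seen, 0 of 10 were called on each coordinate, against 0.0962% of tested genes on each. Unadjusted p was under 0.05 for 2 members on each coordinate, Pam and Scg2 on the dorsal-ventral and Chgb and Scg2 on the medial-lateral. Their places by p were 155 and 163 on the first and 160 and 527 on the second, among 11440 genes.

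Against the peptide transcripts, Chga and Pam followed Vip more closely than nearly all other genes. With section means removed, the Spearman correlation of log2(CPM + 1) with Vip over 82 hexagons was 0.705 for Chga and 0.697 for Pam, places 4 and 5 among 11468 genes, whose median was 0.0455 with 95% of them below 0.282. Pcsk1 reached 0.515, Scg2 0.451 and Cpe 0.389. Pcsk2 (0.290) lay just above the 95th percentile, and Pcsk1n (0.224), Scg5 (0.154), Scg3 (0.036) and Chgb (-0.099) lay within the range of most genes. Correlations over hexagons are descriptions: the points share libraries, depth and possibly animals.

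Pooled over sections the value for Chga rose to 0.825, the highest of all 11468 genes, and that for Chgb fell to -0.321. Without the 2 hexagons farthest from the Vip median the pooled value for Chga was 0.815, that for Pam 0.708 and that for Pcsk1 0.657. These 2 were the hexagon of most Vip (16788 CPM) and 1 without a Vip count, so the other Vip-rich hexagons stayed in. Vip had no count in 20 of the 82 hexagons and under 3 counts in 27. Within single sections the Chga value was 0.44 in section 3 (n = 12), 0.87 in section 4 (n = 14), 0.98 in section 5 (n = 12), 0.76 in section 6 (n = 14) and 0.78 in section 7 (n = 13). Section 3 held little Vip, from 0 to 32.9 CPM with a median of 0, so its value rests on few hexagons with any count. With the means of section and library set together removed, a setting chosen after the data had been seen, the values were 0.662 for Chga, 0.644 for Pam and 0.510 for Pcsk1.

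In section 5, the section with the highest of these values for Chga, the hexagon of least Vip, replicate 4 at 19.2 CPM, held the least Chga, 146 CPM, with 272 CPM of Pam and 472 CPM of Chgb. Replicate 7, at 691 CPM of Vip, held 420 CPM of Chga, 533 CPM of Pam and 245 CPM of Chgb. Replicate 9, at 9211 CPM of Vip, held the most Chga, 691 CPM, with 699 CPM of Pam and 350 CPM of Chgb. Replicate 5 had the most Vip, 14391 CPM, and held 599 CPM of Chga, 717 CPM of Pam and 406 CPM of Chgb. Over the 12 hexagons of this section the correlation with Vip was 0.96 for Pam and -0.47 for Chgb, whose lowest level, 183 CPM, was in replicate 1 at 7670 CPM of Vip.

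Avp was followed most by Scg2 (0.345) and Pcsk2 (0.332), both just above the 95th percentile of all genes (0.325; median 0.0681). Scg3 (0.207) and Chgb (0.169) were positive as well, but without the 2 hexagons farthest from the Avp median Scg3 was at 0.029. Cpe (-0.230) and Pcsk1 (-0.195) lay at or below the 5th percentile (-0.194), and Chga (-0.164), Pcsk1n (-0.114), Pam (-0.110) and Scg5 (-0.033) were weakly negative. With Pearson's correlation the value for Chga was 0.166 instead, that for Pcsk1 0.061 and that for Pcsk1n 0.128, so their signs against Avp depend on the measure. The shallowest library, replicate 4 of section 4, had no count of these 3 genes or of Avp, and is 1 of those 2 hexagons. Its part in the change of sign was not tested. Without those 2 hexagons the Spearman values were 0.351 for Scg2, 0.284 for Pcsk2, -0.273 for Chga and -0.207 for Pcsk1n. With all 82 hexagons, Scg2 and Pcsk2 were the members that lay above the 95th percentile of genes for both peptides.

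**Figure D4:**
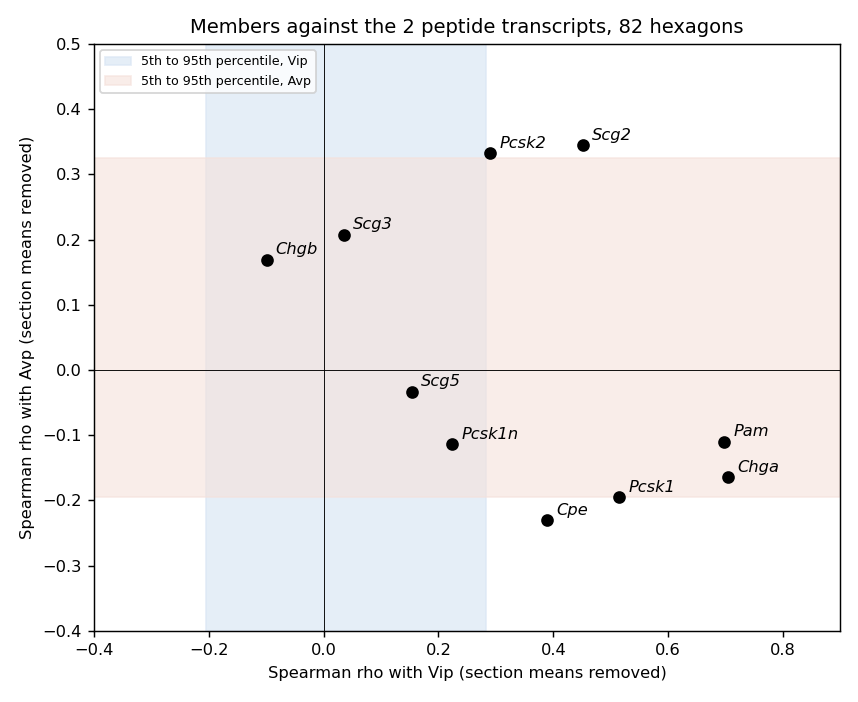
Spearman rho with Avp (vertical axis) against rho with Vip (horizontal axis) for the 10 transcripts over 82 hexagons with section means removed; shaded bands span the 5th to 95th percentile of all tested genes for each peptide. Chga and Pam lie far to the right near 0.70, Scg2 and Pcsk2 lie above and to the right of both bands, and Chgb lies left of 0.

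Among themselves the members formed no single block. Over their 45 pairs the median correlation with section means removed was 0.188, against 0.0482 over all pairs of genes with a mean of 20 CPM or more. Chga and Pam reached 0.653, Scg2 and Pcsk2 0.643, Scg2 and Pam 0.512, and Chga and Pcsk1 0.506. Chgb was negative with most of the others, at -0.370 with Cpe and -0.240 with Pam. Its value with the related granin Chga, -0.158, lay within the 5th to 95th percentile of all such gene pairs (-0.169 to 0.260). With Scg3 (0.197), Scg5 (0.107) and Pcsk1 (0.081) Chgb was positive.

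**Figure D5:**
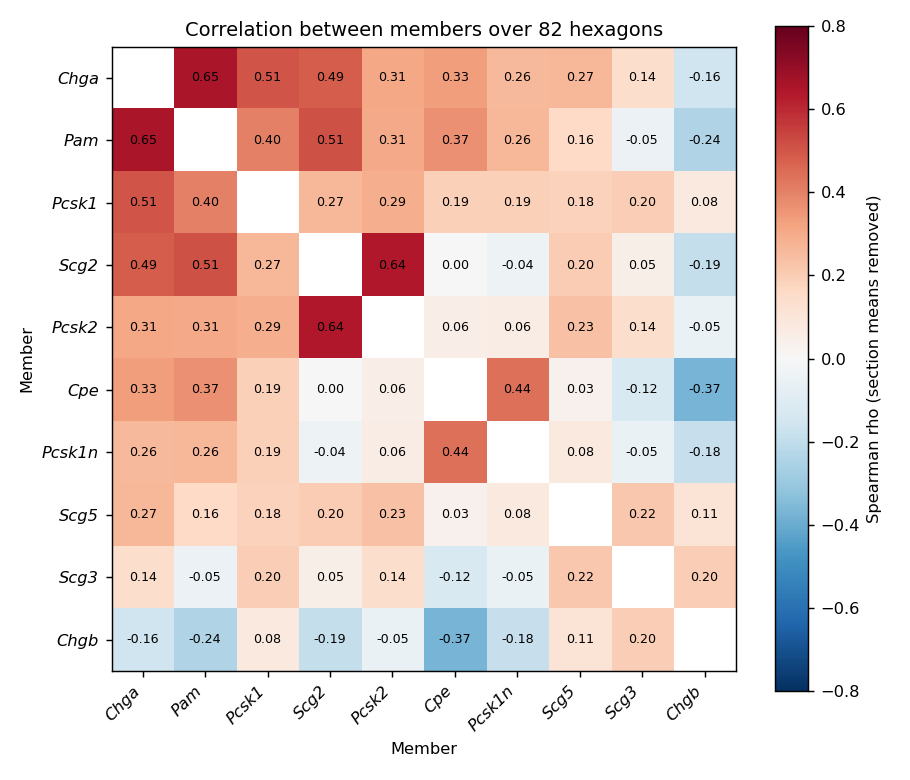
Spearman correlation (colour scale and printed value, section means removed) between each pair of the 10 transcripts over 82 hexagons; both axes list the members. Chga with Pam, at 0.65, and Scg2 with Pcsk2, at 0.64, are the highest values, and the Chgb row is mostly negative.

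The genes most like each member differed in kind. Scg2 followed Syt10 (0.869), Vipr2 (0.858) and Nell1 (0.848), of which Syt10, a vesicle calcium sensor, and Vipr2, the receptor for vasoactive intestinal peptide, are among the 11 SCN neuron markers. Its correlation with the sum of those markers was 0.836, and that of Pcsk2 was 0.739, against a median of 0.0823 over all genes. Pcsk2 had Scg2 (0.643), Map3k19 (0.623) and Zfand6 (0.617) as its nearest. Chga was nearest to Ppp1r1a (0.727), an inhibitor of protein phosphatase, then Vip (0.705) and Iqsec3 (0.699). Pam was nearest to Cadps2 (0.734), which primes dense-core vesicles for release, then Ppp1r1a (0.721) and Vip (0.697).

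Pcsk1 was nearest to Hnrnpk (0.547), 3632451O06Rik (0.515) and Vip (0.515). Cpe was nearest to Mt1 (0.532), Emc10 (0.512) and Ppil1 (0.504), and its correlation with the sum of 12 astrocyte markers was 0.368, the highest of the members. Pcsk1n was nearest to Emc10 (0.601), Abhd8 (0.560) and Ftl1 (0.559). For Scg3 the nearest gene was Ap2m1 (0.546), for Scg5 Arhgef25 (0.458) and for Chgb Ldha (0.398), so Chgb had no close counterpart among 8145 genes.

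The other genes of the pathway were read against the share of all tested genes that edgeR called in either direction, 0.793% on the dorsal-ventral, 1.38% on the medial-lateral and 0.244% on the anterior-posterior slope. At these shares, few or no calls in lists of this length are no result about them. Counts at an unadjusted p under 0.05 have no such share beside them and are description only. Of 17 further granin-like and processing genes, 11 were tested and edgeR called none on either in-plane slope or on the anterior-posterior slope, with 2 at an unadjusted p under 0.05 on each. DESeq2 called 0, 0 and 1. The median dorsal-ventral slope of the 11 was -0.03, with 4 positive. Vgf, a granin-like neuropeptide precursor, had a slope of -0.08 ± 0.06 and Furin, the convertase of the constitutive pathway, -0.03 ± 0.10. Gnas was called by the 5 position terms (adjusted p = 0.00689).

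Of 30 genes for the formation and release of dense-core vesicles, 28 were tested. By edgeR 1 was called on the dorsal-ventral slope, Cadps2, and none on the medial-lateral or anterior-posterior slope, with 9 and 5 at an unadjusted p under 0.05. DESeq2 called Cadps2 on both in-plane slopes, and Rab3b and Rph3a on the anterior-posterior slope. Cadps2 rose along the dorsal-ventral coordinate by 0.43 ± 0.08 (edgeR, adjusted p = 4.84e-04), beside a median of -0.01 for the 28, and with Sytl4 it was also called by the 5 terms. Of 25 neuropeptide precursors, the substrates of these enzymes, 14 were tested. Vip rose along the dorsal-ventral coordinate, while Penk, the enkephalin precursor, fell by 0.43 ± 0.10 on the log2 scale (edgeR, adjusted p = 0.0101) and Tac2 by 1.04 ± 0.27 (0.0330). Avp had a slope of -0.27 ± 0.11 (0.402). On the medial-lateral slope edgeR called none of the 14 (5 at an unadjusted p under 0.05) and DESeq2 called 3, and on the anterior-posterior slope edgeR called 1, Penk, and DESeq2 5.

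For Pam, Pcsk1n and Pcsk2 some counts are uncertain. By GENCODE M21 on GRCm38, an exon of Pam (chr1:97795114-98095646, - strand) overlaps B230216N24Rik on the same strand. An exon of Pcsk1n (chrX:7919822-7924410, + strand) overlaps Eras, and exons of Pcsk2 (chr2:143546156-143816285, + strand) overlap Pcsk2os1 and Pcsk2os2, all on the other strand. The strand setting of the authors' counting is not given in the sources used here, so reads from these genes and from the overlapping ones cannot be told apart.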

How the data were processed

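RNA from 82 laser-captured hexagons was sequenced after Smart-seq2 amplification and Tn5 tagmentation, per the labels' protocols. STAR, bcl2fastq 2 and GRCm38 are named in the submitters' processing notes. How reads were counted, with which annotation and whether by strand, is not given in the sources used here. Deposited counts are whole-number reads per gene made by the authors. The deposited RPKM values equal those counts over gene length and library total, to within a relative deviation of 5.3e-15, so they are no separate evidence, and levels of different genes were compared on that scale alone. Amplified reads carry no molecular identifiers.

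Members were matched by symbol. Testing was limited to the 11469 genes that reached 10 counts in at least 10 libraries. Slopes, in log2 per 100 coordinate units, came from edgeR 4.0.16 (R 4.3.3; TMM, robust quasi-likelihood) with section as a factor, and adjusted p-values are Benjamini-Hochberg over all tested genes, threshold 0.05. Section 9, with 1 hexagon, adds nothing to slopes within sections and was left out of the tests between sections. DESeq2 1.42.0 was an alternative. Correlations used log2(CPM + 1), CPM with TMM scaling. Scripts were tested on simulated data. The named genes were the 10 members, Vip and Avp, the 3 genes nearest to each member among those with a mean of 20 CPM or more, and called genes of each list, or its most abundant ones. Vgf and Furin were named for their role after their values were seen. The members, lists and tests were chosen with earlier results of these data known. Promoters came from the RefSeq table (GRCm38.p6), with 9 of 10 members matched.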

Additional observations from a re-analysis of the deposited data

Results flagged for a closer look

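Sections 1, 2 and 8, with 4 to 6 hexagons each, were screened for single hexagons far from the rest (Dixon's test), which gave 30 combinations of member and section. In 2 of them a hexagon stood apart, and chance alone gives about 1 in 20. Pcsk1 was 127 CPM in replicate 4 of section 2, where the other 5 hexagons ranged from 7.94 to 49.9 CPM. Scg5 was 755 CPM in replicate 3 of section 8, where the others ranged from 439 to 547 CPM. That hexagon also held the highest Pcsk2 level of all 82, 847 CPM.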

How the results depend on the processing

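Of the 10 members, 3 were called on the dorsal-ventral slope, and over 21 other settings this count stayed within 1.5 times. The medial-lateral count of 1 became 3 with DESeq2 (Pcsk2, Pam and Chga), 2 with library size alone, with neuron markers as a covariate and with no low-count filter, 0 with library set as a factor and with the SCN neuron sum, and 0 to 2 over omitted sections or hexagons of section 1. Over such omissions the 5-term count was 1 to 4. The anterior-posterior count of 0 became 2 with hexagons as units (Chga and Chgb) and was 0 to 1 over omitted sections. The count of 4 between sections became 0 with library set, where fewer contrasts between sections remain, and was 2 to 5 over omitted sections. The number of members correlated positively with Avp rose to 8 with Pearson's measure.

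Counts over all genes moved more: with no low-count filter, 799, 912 and 3538 were called on the dorsal-ventral slope, the medial-lateral slope and the 5 terms, against 91, 158 and 233. DESeq2 called 154, 353 and 392, and 448 against 28 on the anterior-posterior slope. With library set the medial-lateral count was 14 and the 5-term count 140.

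Slopes near 0 changed sign. On the dorsal-ventral axis Scg3 was -0.0048 with the SCN neuron sum, -0.0029 with library size alone, -0.0018 with the oligodendrocyte sum and -0.0065 without low-depth libraries. Over omissions it ran from -0.017 to 0.024, Pcsk2 from -0.0013 to 0.059 and Scg5 from -0.0045 to 0.018. On the medial-lateral axis Scg2 was 0.11 with the SCN neuron sum. Scg3 was -0.073 with library set, -0.024 with neuron markers and -0.026 without low-depth libraries, and -0.017 to 0.028 over omissions. Scg5 was -0.0016 with DESeq2, -0.0031 with library set, -0.0076 with library size alone, -0.029 with neuron markers and -0.017 without low-depth libraries, and -0.018 to 0.028 over omissions. Cpe was 0.073 with library set and -0.041 to 0.0092 over omissions. On the anterior-posterior axis Pcsk2 was -0.065 with hexagons as units and -0.029 to 0.029 over omitted sections, Scg3 -0.064 to 0.17 and Pcsk1n -0.19 to 0.55.

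Among slope differences, Pcsk1 minus Pcsk1n ran from 0.24 to 0.34 on the dorsal-ventral axis over omitted sections. On the medial-lateral axis it was -0.54 with library set, where it passed, and -0.36 to -0.18 over omissions. Chga minus Chgb on that axis was 0.18 with library set and -0.20 to 0.0096 over omissions. The causes were not tested. No paired analysis was possible because replicate numbers were given in accession order and pair no hexagons. Depth limits Pcsk1 and Pcsk1n most, with 6 and 2 hexagons under 3 counts.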
